A study of Mus musculus with 10 samples.

Results

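The enzymes described here convert drugs, dietary chemicals and related endogenous lipids into forms that can be excreted. Members were taken by gene symbol alone, as cytochrome P450 genes of families Cyp1 to Cyp4, UDP-glucuronosyltransferases (Ugt1a, Ugt2a, Ugt2b), glutathione S-transferases (Gsta, Gstm, Gstp, Gstt, Gsto, Gstk and the microsomal Mgst) and sulfotransferases (Sult1 to Sult6). Of 22180 measured genes 127 qualified, with 77 P450, 8 UGT, 21 GST and 21 SULT genes. No Ugt1a gene qualified, because the 2 probe sets of that locus match several genes each. Cyp2d13 and Cyp4b1-ps2 are annotated as transcribed pseudogenes and were kept, since their symbols fit the rule.

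P450 enzymes sit in the endoplasmic reticulum and oxidise their substrates. Transferases then attach glucuronic acid, glutathione or sulfate, and export pumps remove the products. In the gut these enzymes are best known from enterocytes, the absorptive cells, where they act on what is swallowed before it reaches the blood.

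Expression was measured on 10 arrays of sorted mouse intestinal cells, as log2 intensity per probe set. The 4 Flattop arrays came from crypt cells described as expressing Flattop, a protein encoded by Cfap126 and linked to planar cell polarity, in mice with the genotype FltpT2AiCre crossed with Gt(ROSA)26mTmG on a mixed background of C57BL/6J, CD1 and 129/SvJ. The 6 Lgr5-high arrays came from stem cells with high Lgr5 and GFP from Lgr5-EGFP-IRES-creERT2 mice on C57BL/6J, and animals of both groups were 3 to 6 months old. The comparison asks how Flattop-expressing crypt cells differ from Lgr5-high stem cells. No agent is named for either group, and the labels do not describe the sort gates. Cre is driven from the Flattop locus, and the reporter's switch is a permanent change of the DNA that daughter cells inherit. Whether arrays stand for separate or pooled animals is not stated, so each p-value reflects array-to-array spread only, which may be technical. Group, genotype and strain cannot be told apart.

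The labels were first set beside their own genes. Cfap126 itself was at 5.42 ± 0.74 (SD, n = 4) on the Flattop arrays and 4.996 ± 0.35 (SD, n = 6) on the others, a difference of 0.43 that was not called (limma adjusted p = 0.678). Lgr5 read 9.19, 9.65, 6.44 and 8.21 on Flattop arrays 1 to 4 and 8.99 to 9.90 on Lgr5-high arrays (difference -1.10, adjusted p = 0.533), so 2 Flattop arrays lay inside the Lgr5-high range. All 9 lymphocyte markers rose in Flattop, with list means of 8.89 to 11.17 in Flattop and 4.42 to 4.87 in Lgr5-high arrays. All 14 enterocyte markers had positive differences. Limma called 5 of them, and 13 had an unadjusted p under 0.05. Their list means were 8.92 to 10.225 in Flattop against 7.002 to 7.72 in Lgr5-high arrays. All 7 stem cell markers had negative differences and 0 of them passed limma, although 5 did at an unadjusted p under 0.05. The list means were 7.80 to 9.15 in Flattop and 9.07 to 9.48 in Lgr5-high arrays. In bulk arrays such as these, fewer cells of a type and less RNA per cell cannot be told apart.

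Of the 127 genes 6 rose in Flattop and none was called lower. These were the P450 genes Cyp2d26, Cyp2j6, Cyp3a13 and Cyp4f40 and the glutathione S-transferase genes Gsta4 and Gstm3, each at least 2-fold higher. Called here means an adjusted p under 0.05 in limma, a linear model across all genes with moderated variances, with Benjamini-Hochberg adjustment over the 22180 genes. The 6 genes were 4.72% of the members, where 0.915% of all genes were called, 0.902% as higher in Flattop. Without adjustment, at a p under 0.05, 22 members (17.3%) differed, 19 of them higher and 3 lower, where 9.78% of all genes did. The groups did not overlap in 12 members (9.45%), 11 with every Flattop array above every Lgr5-high array, where 2.98% of all genes were apart. The median difference, Flattop minus Lgr5-high, was -0.02 over the members and -0.06 over all genes. The mean over arrays lay under the median of all values, 4.70, for 73 members (57.5%, against 42.9% of all genes), and none of those 73 was called. That mean takes in the Flattop arrays, so a gene high there is less readily counted as dim. The called genes Cyp3a13 and Cyp4f40 had Lgr5-high means of 3.98 and 3.996, under 4.70. Without detection calls, the values of such dim genes may hold little beyond background.

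**Figure D1:**
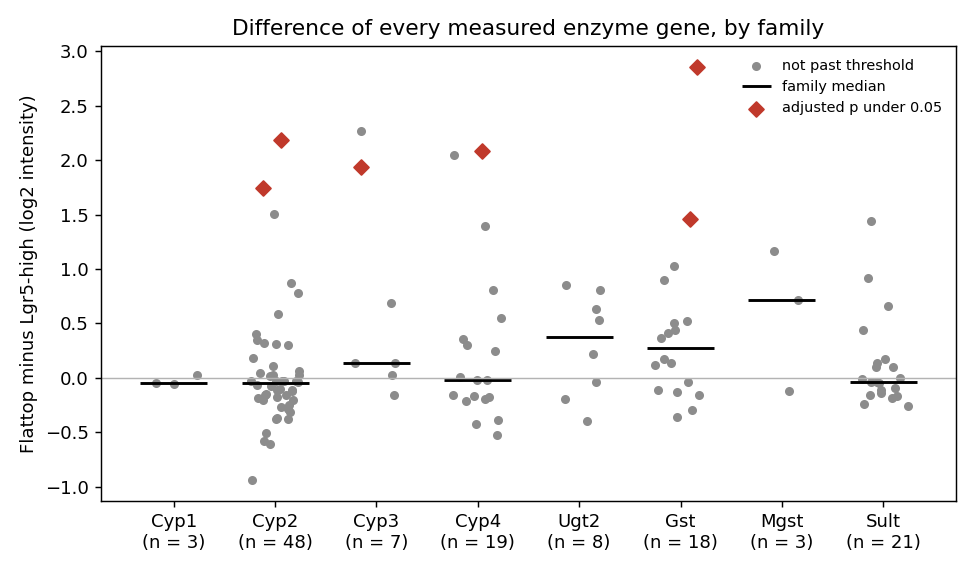
Difference in log2 intensity, Flattop minus Lgr5-high, for each of the 127 enzyme genes, grouped by family on the x axis. Red diamonds are the 6 genes with an adjusted p under 0.05, grey points the others, and black lines family medians. The called genes all lie above 1, and most other genes lie close to 0.

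Among the P450 genes 4 of 77 rose (5.19%, where 0.915% of all genes were called), 1 or 2 in each of the families Cyp2, Cyp3 and Cyp4. Cyp3a13 (Entrez gene 13113) belongs to the subfamily that oxidises many drugs and steroids. It read 5.35, 6.30, 5.58 and 6.43 in Flattop replicates 1 to 4, and 3.665 at the lowest, 3.93 at the median and 4.24 at the highest of the Lgr5-high arrays. Every Flattop array was thus above every Lgr5-high array by more than 1 on the log2 scale. The mean rose to 5.92 ± 0.53 (SD, n = 4) from 3.98 ± 0.22 (SD, n = 6), a difference of 1.94 (SE 0.22, limma adjusted p = 0.00206). Because its Lgr5-high mean lay under 4.70, the size of the change is uncertain.

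Cyp4f40 (Entrez gene 631304) belongs to a subfamily of fatty acid hydroxylases. Its Flattop values were 6.18, 6.02, 5.305 and 6.82, and its Lgr5-high values ran from 3.69 through a median of 4.005 to 4.47. The groups were apart, and Flattop replicate 3 was the lowest of its group. The difference was 2.085 (SE 0.265, limma adjusted p = 0.0033), again from a dim Lgr5-high mean of 3.996 ± 0.29 (SD, n = 6).

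Cyp2d26 (Entrez gene 76279), of a subfamily that oxidises many basic drugs, read 7.84, 8.18, 6.84 and 9.27 in Flattop replicates 1 to 4. In Lgr5-high arrays it ran from 5.12 through 5.84 to 6.42. The lowest Flattop array cleared the highest Lgr5-high array by a small margin, and the difference was 2.18 (SE 0.43, limma adjusted p = 0.0431). Leaving out any array other than Flattop replicate 3 ended the call (adjusted p 0.0595 to 0.127), as did a second quantile normalisation (0.0609) and the title range as a block (0.0571). Cyp2j6 (Entrez gene 13110), from a subfamily that oxidises arachidonic and related fatty acids, read 6.82, 7.65, 7.33 and 8.27 in Flattop replicates 1 to 4, and ran from 5.37 through 5.65 to 6.73 in Lgr5-high arrays. Flattop replicate 1 and Lgr5-high replicate 1 nearly met. The difference was 1.74 (SE 0.32, limma adjusted p = 0.032), and the call ended without any array other than replicate 1 of either group (adjusted p 0.059 to 0.103) and after a second quantile normalisation (0.0554).

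In the GST class 2 of 21 genes rose (9.52%, where 0.915% of all genes were called). Gsta4 (Entrez gene 14860) encodes the transferase best known for conjugating hydroxynonenal, a toxic product of lipid peroxidation. It read 9.01, 8.21, 6.935 and 8.52 in Flattop replicates 1 to 4, and 5.005 at the lowest, 5.28 at the median and 5.63 at the highest of the Lgr5-high arrays. All Flattop arrays stood more than 1 above the Lgr5-high arrays, and Flattop replicate 3 was again the lowest of its group. The mean rose from 5.31 ± 0.24 (SD, n = 6) to 8.17 ± 0.89 (SD, n = 4), by 2.86 (SE 0.33, limma adjusted p = 0.00206), a 7.26-fold change in intensity.

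Gstm3 (Entrez gene 14864), a mu class transferase, read 8.002, 7.99, 6.97 and 7.76 in Flattop replicates 1 to 4 and ran from 5.57 through 6.22 to 6.87 in Lgr5-high arrays. The groups were apart by a narrow margin. Its difference was 1.46 (SE 0.29, limma adjusted p = 0.0483), and it missed the threshold when each array was centred on its median (0.0619). The call also ended without any array other than replicate 3 of either group (adjusted p 0.0724 to 0.153).

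**Figure D2:**
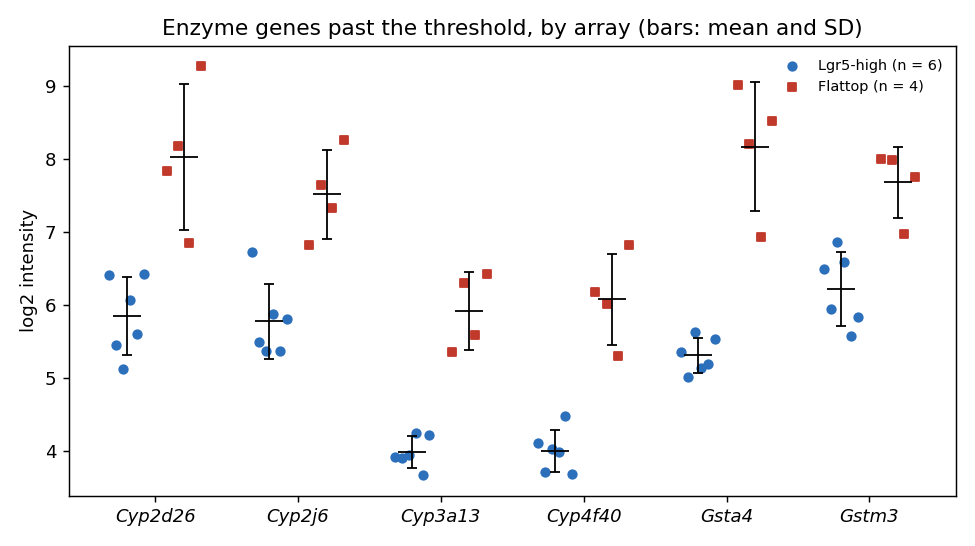
Log2 intensity of the 6 called enzyme genes in each of the 6 Lgr5-high arrays (blue circles) and 4 Flattop arrays (red squares), with group means and SD as black bars. In every gene the lowest Flattop array lies above the highest Lgr5-high array, with the narrowest gaps for Cyp2j6 and Gstm3.

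Sample titles carry numbers in 2 ranges, 1 to 8 and 38 to 46, each with 2 Flattop and 3 Lgr5-high arrays; the labels do not say what the numbers mean. Gsta4 differed by 3.28 within titles 1 to 8 and by 2.44 within titles 38 to 46. The corresponding values were 1.91 and 1.96 for Cyp3a13, 2.15 and 2.02 for Cyp4f40, and 2.34 and 2.025 for Cyp2d26. Cyp2j6 differed by 1.37 and 2.11, and Gstm3 by 1.56 and 1.365. All 6 genes were higher in Flattop within both ranges. In each of them every Flattop array lay above every Lgr5-high array, so this sign was fixed in advance. In limma only Gsta4 (adjusted p = 0.0288) and Cyp4f40 (0.0275) were called within titles 1 to 8, and none within titles 38 to 46. In that second range 17 members (13.4%) differed at an unadjusted p under 0.05, 14 of them higher, where 8.48% of all genes did. The interaction of group and range was called for 0 of 127 members by limma, where 0.00902% of all genes were called. At an unadjusted p under 0.05 it held for 9 members (7.09%, against 7.39% of all genes), with Cyp2c68 at the smallest adjusted p (0.277). Cyp2c68, chosen here for that p, differed by 1.74 within titles 1 to 8 and by -0.185 within titles 38 to 46.

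Promoters are printed for the 5 of these 6 genes that the promoter table holds, to show which regulatory letters the genes that rose do and do not share. Each sequence is from RefSeq, build GRCm38.p6, and covers 250 bases before to 50 after the gene's start. Capitals mark a match to 1 of 4 motifs, searched on both strands: TNGCGTG, the core bound by the aryl hydrocarbon receptor, TGACNNNGC, the antioxidant response core bound by Nrf2, CAAAGTC, a core bound by HNF4 factors, and TTTATNG, a site of the intestinal factor CDX2. None of these matches overlaps another in the sequences printed.
Cyp3a13, chr5:137921570-137921869, - strand: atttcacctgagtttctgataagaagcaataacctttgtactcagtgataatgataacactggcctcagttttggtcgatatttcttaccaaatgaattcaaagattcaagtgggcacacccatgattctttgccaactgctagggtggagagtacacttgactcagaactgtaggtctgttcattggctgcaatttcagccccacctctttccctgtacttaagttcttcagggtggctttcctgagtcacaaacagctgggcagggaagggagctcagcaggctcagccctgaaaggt
Cyp4f40, chr17:32658636-32658935, + strand: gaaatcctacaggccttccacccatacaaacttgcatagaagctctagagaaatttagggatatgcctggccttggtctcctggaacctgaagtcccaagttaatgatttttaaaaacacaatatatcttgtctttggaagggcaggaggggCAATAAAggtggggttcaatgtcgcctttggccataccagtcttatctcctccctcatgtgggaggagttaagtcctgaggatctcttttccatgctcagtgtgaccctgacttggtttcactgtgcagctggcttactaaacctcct
Cyp2d26, chr15:82794196-82794495, - strand: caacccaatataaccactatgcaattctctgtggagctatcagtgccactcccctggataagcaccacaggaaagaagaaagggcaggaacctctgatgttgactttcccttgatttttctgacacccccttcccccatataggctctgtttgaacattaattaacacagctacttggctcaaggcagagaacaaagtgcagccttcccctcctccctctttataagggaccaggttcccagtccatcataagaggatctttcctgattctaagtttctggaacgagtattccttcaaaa
Cyp2j6, chr4:96553602-96553901, - strand: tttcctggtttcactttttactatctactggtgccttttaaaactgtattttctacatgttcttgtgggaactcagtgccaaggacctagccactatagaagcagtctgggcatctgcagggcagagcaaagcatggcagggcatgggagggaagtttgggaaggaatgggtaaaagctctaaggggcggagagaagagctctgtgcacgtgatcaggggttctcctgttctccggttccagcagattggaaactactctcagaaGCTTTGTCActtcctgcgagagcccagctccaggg
Gstm3, chr3:107969125-107969424, - strand: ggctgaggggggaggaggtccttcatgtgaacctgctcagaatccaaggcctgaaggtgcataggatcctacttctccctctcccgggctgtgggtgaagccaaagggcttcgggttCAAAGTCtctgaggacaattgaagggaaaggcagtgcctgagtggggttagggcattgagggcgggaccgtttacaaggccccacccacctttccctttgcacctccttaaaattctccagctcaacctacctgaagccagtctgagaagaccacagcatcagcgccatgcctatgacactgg

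The promoters of Cyp3a13 and Cyp2d26 held none of the 4 motifs, and no motif recurred among the 5. Gstm3 held the HNF4 core at position -133, counted with the gene's first base as 0, and Cyp4f40 a CDX2 site at position -98 on the opposite strand (the first of 2 starts listed for that gene). Cyp2j6 held the antioxidant core at position 15, downstream of the start and on the opposite strand. Across the 106 members with a listed promoter, the HNF4 core was found in 19 (17.9%), against 4.36% of all 27025 promoters. Of these, 17 were P450 genes, 9 of them among the 12 Cyp2c promoters; promoters of such close relatives resemble each other and are not independent. The aryl hydrocarbon receptor core was found in 1.89% of member promoters and 5.12% of all, the antioxidant core in 6.6% and 12.5%, and the CDX2 site in 12.3% and 11.3%. These are matches of letters in a short window, and no binding was measured.

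Each called P450 gene has relatives of its subfamily on the same chromosome, as does Gstm3. None of those relatives was called, where 0.915% of all genes were. Many are dim: 4 of the 7 Cyp2j, 5 of the 9 Cyp2d, 5 of the 7 Cyp3a and 4 of the 9 Cyp4f genes measured lay under 4.70 in mean, but only 1 of the 6 Gstm genes. The other 6 Cyp2j genes on chromosome 4 differed by -0.205 to 0.31, around Cyp2j6 at 1.74. On chromosome 15 the other 8 Cyp2d genes differed by -0.27 to 0.40, and on chromosome 3 the other 5 Gstm genes by 0.12 to 0.50. The difference of Cyp2d26 from its relatives was not tested as such. Probes can detect a near-identical relative, so values of single genes in these subfamilies are uncertain as to the copy measured.

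The Cyp3a and Cyp4f subfamilies held further genes with positive differences that were not called. Cyp3a25 on chromosome 5 read 5.92, 5.62, 8.61 and 5.98 in Flattop replicates 1 to 4, and ran from 3.31 through 4.25 to 5.32 in Lgr5-high arrays. The groups were apart, yet the large spread left its difference of 2.27 (SE 0.60) uncalled (limma adjusted p = 0.159). Cyp3a11, which in mouse liver is the classical target of the pregnane X receptor, differed by 0.685 (SE 0.20, limma adjusted p = 0.212). The remaining 4 Cyp3a genes lay between -0.155 and 0.14. In the Cyp4f subfamily, Cyp4f14 differed by 1.40 (adjusted p = 0.325) and Cyp4f15 by 0.81 (adjusted p = 0.311), and Cyp4f16 by 0.55 (adjusted p = 0.653). The other 4 Cyp4f genes on chromosome 17 were Cyp4f37 (-0.38), Cyp4f39 (-0.17), Cyp4f17 (0.006) and Cyp4f13 (0.36), none of them called. The 6 Cyp4a genes, known for hydroxylating fatty acids, all had negative differences, from -0.52 to -0.155 (Cyp4a12b -0.42, adjusted p = 0.595), and none was called. Negative differences were also found in 13651 of all 22180 genes, and 4 of the 6 Cyp4a genes lay under 4.70 in mean. Within titles 38 to 46 only 4 of the 6 were negative.

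Cyp4v3, the mouse counterpart of the fatty acid hydroxylase CYP4V2, read 9.115, 9.33, 9.13 and 8.53 in Flattop replicates 1 to 4 and ran from 5.11 through 7.43 to 8.10 in Lgr5-high arrays. The Flattop arrays lay close together and above a widely spread Lgr5-high group. Its difference of 2.05 (SE 0.54) was not called (limma adjusted p = 0.165).

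Other Cyp2 genes differed less or with more spread. Cyp2c65, of a subfamily that also oxidises arachidonic acid, read 5.77, 5.495, 5.41 and 6.32 in Flattop replicates 1 to 4, against 3.06 to 5.30 in Lgr5-high arrays, a difference of 1.505 (SE 0.39, limma adjusted p = 0.145). Cyp2u1, a fatty acid hydroxylase, differed by 0.87 (SE 0.215, adjusted p = 0.126). It was called without Lgr5-high replicate 2 (0.996, adjusted p = 0.0426). Cyp2e1, the ethanol-oxidising P450, read 6.92, 6.61, 5.375 and 5.03 in Flattop replicates 1 to 4, and ran from 5.45 through 6.98 to 8.59 in Lgr5-high arrays. The ranges overlapped widely, and its difference of -0.94 (SE 0.64) was not called (limma adjusted p = 0.666). It was -0.605 without Lgr5-high replicate 1, -0.62 without Flattop replicate 4 and -0.222 within titles 1 to 8. Cyp2a22 differed by -0.50 (SE 0.19, adjusted p = 0.385). Cyp2c54, named after its values were seen, was the 1 member with all Flattop arrays below all Lgr5-high arrays, at 4.435 to 4.66 against 4.755 to 5.33 (difference -0.38, adjusted p = 0.425).

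The Cyp1 genes, textbook targets of the aryl hydrocarbon receptor, gave 0 calls of 3 in limma and 0 at an unadjusted p under 0.05. Over all genes the shares were 0.915% and 9.78%. Cyp1a1 averaged 4.96 ± 0.31 (SD, n = 4) in Flattop against 5.01 ± 0.21 (SD, n = 6), a difference of -0.055 (SE 0.17). Cyp1a2 differed by 0.028 and Cyp1b1 by -0.050, with adjusted p of 0.901 to 0.955 for the 3 genes in limma. The mean of Cyp1a1 lay little above the median of all values and those of Cyp1a2 and Cyp1b1 below it, so a difference at low levels may not have been detectable.

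Cyp2c55 gave opposite readings from its 2 probe sets, the only such case among the 3 members with more than 1. The probe set with the higher mean, used throughout, read 5.26, 4.81, 5.35 and 5.36 in Flattop replicates 1 to 4 and 4.204 to 8.125 in Lgr5-high arrays (difference -0.58, SE 0.61 in a fit over all probe sets). The other read 3.38, 5.205, 7.17 and 8.99 in Flattop and 3.38 to 4.39 in Lgr5-high arrays (difference 2.40, SE 0.89, adjusted p = 0.513 in the same fit). The Flattop arrays thus spanned from the bottom of the Lgr5-high range to far above it in the second probe set, and neither difference was called. The negative reading of the first rests largely on Lgr5-high replicate 5, without which the difference was -0.111. Which of the 2 follows the Cyp2c55 transcript cannot be read from these values.

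Among the remaining GST genes outside the microsomal family none was called. The pi class transferases Gstp1 and Gstp2 differed by 0.37 (SE 0.44) and 0.52 (SE 0.36), with Gstp1 averaging 11.19 ± 0.74 (SD, n = 4) against 10.83 ± 0.78 (SD, n = 6). The omega class gene Gsto1 differed by 0.41 (SE 0.33), the kappa class gene Gstk1 by 0.90 (SE 0.42) and the mu class gene Gstm6 by 0.44 (SE 0.20). Adjusted p of these 5 genes ran from 0.513 to 0.80 in limma. The 4 theta class (Gstt) genes had differences of -0.36 to -0.036 and the 6 mu class genes of 0.12 to 1.46, and Gstm3 alone was called among these 10 genes. Neither sign pattern was stable. One mu class gene was negative after a second quantile normalisation, within each title range and without Flattop replicate 2, and 2 were without Flattop replicate 4. One theta class gene was positive within each title range and without any 1 of 5 arrays (Flattop replicates 2, 3 and 4, Lgr5-high replicates 2 and 5).

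Microsomal transferases are embedded in membranes and are unrelated in sequence to the cytosolic ones. Mgst3 read 9.73, 8.53, 8.52 and 9.69 in Flattop replicates 1 to 4, and ran from 7.13 through 7.99 to 8.55 in Lgr5-high arrays. Flattop replicates 2 and 3 fell at the top of the Lgr5-high range. Its difference of 1.17 (SE 0.32) was not called (limma adjusted p = 0.191), nor were those of Mgst2 (0.72, SE 0.375, adjusted p = 0.587) and Mgst1 (-0.125, SE 0.26, adjusted p = 0.891).

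Probe sets that match several genes were left out of the 127 and are reported by subfamily only, from a fit over all 41345 probe sets chosen after the data were seen. Of 14 such probe sets with a member among their genes, 1 was called, where 0.404% of all probe sets were. It matches 4 genes of the Gsta group, the alpha class transferases, which handle products of lipid peroxidation among other substrates. It read 10.995, 10.67, 9.59 and 11.51 in Flattop replicates 1 to 4, and 4.97 to 6.35 in Lgr5-high arrays. The groups were far apart, and the difference of 5.02 (SE 0.395, adjusted p = 0.000357 over all probe sets) was past the threshold. The gene or genes behind it cannot be named. A second Gsta probe set, matching 3 genes, read 9.61, 8.999, 9.31 and 11.46 in Flattop and 5.53 to 7.66 in Lgr5-high arrays (difference 2.81, SE 0.56, adjusted p = 0.0871). Another Gsta probe set was dim at 2.975 and 2.97 in the 2 groups and differed by 0.009.

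The 2 probe sets shared by Ugt1a genes gave the only readings of that locus. The probe set matching 5 genes averaged 8.01 ± 0.34 (SD, n = 4) in Flattop against 7.43 ± 0.44 (SD, n = 6), and that matching 8 genes 5.93 ± 0.18 against 5.59 ± 0.27. Their differences of 0.58 (SE 0.25) and 0.34 (SE 0.16) were not called (adjusted p 0.608 and 0.643 over all probe sets). The Flattop arrays lay inside or just above the Lgr5-high range in both.

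**Figure D3:**
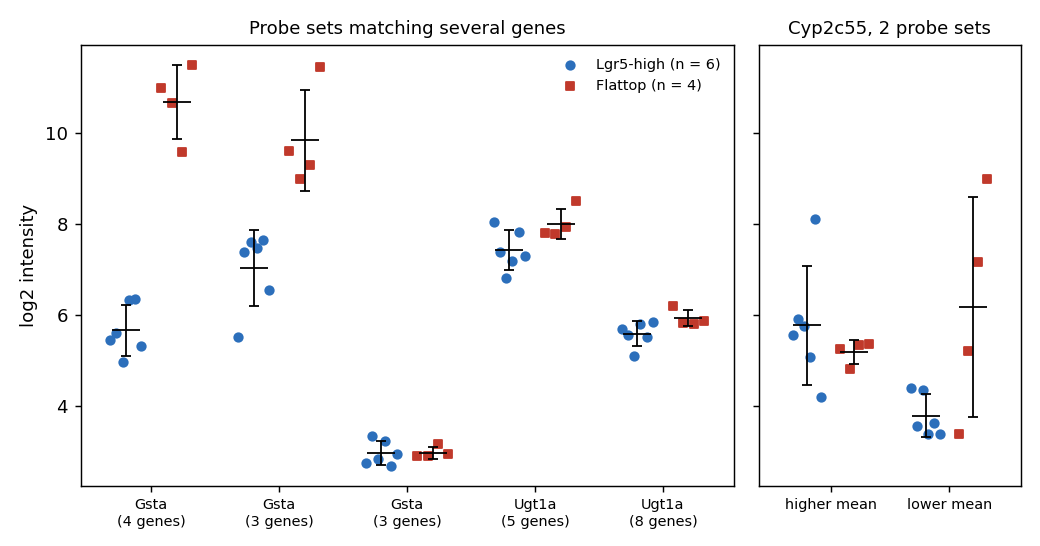
Log2 intensity by array of the 5 probe sets that match several Gsta or Ugt1a genes (left) and of the 2 probe sets of Cyp2c55 (right), with Lgr5-high arrays as blue circles, Flattop arrays as red squares, and black bars for mean and SD. The first 2 Gsta probe sets separate the groups, the Ugt1a probe sets overlap between groups, and the 2 Cyp2c55 probe sets differ in opposite directions.

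UGT enzymes add glucuronic acid to phenols, steroids and bile pigments. Of the 8 genes measured here, all of the Ugt2 family, 0 were called by limma, where 0.915% of all genes were. At an unadjusted p under 0.05, 1 (12.5%) was higher, where 9.78% of all genes differed. Ugt2b34 averaged 9.38 ± 0.79 (SD, n = 4) in Flattop against 8.85 ± 0.66 (SD, n = 6), a difference of 0.53 (SE 0.41, adjusted p = 0.697). Ugt2a3 differed by 0.80 (SE 0.32, adjusted p = 0.444). Ugt2b36 varied within both groups, from 4.25 to 6.40 in Flattop and from 3.39 to 6.14 in Lgr5-high arrays, with a difference of 0.85 (SE 0.575). The other 5 genes lay under 4.70 in mean, among them Ugt2b37 (difference 0.22, adjusted p = 0.734).

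Sulfotransferases attach sulfate to hormones, phenols and sterols, and 0 of 21 were called by limma, where 0.915% of all genes were. At an unadjusted p under 0.05, 2 (9.52%) were higher, near the 9.78% of all genes that differed. Sult1d1, which acts on catecholamines and phenols in mouse, read 9.07, 8.90, 7.45 and 8.52 in Flattop replicates 1 to 4 and ran from 5.60 through 7.49 to 8.14 in Lgr5-high arrays. Flattop replicate 3 fell inside the Lgr5-high range, and the difference of 1.44 (SE 0.56) was not called (adjusted p = 0.427). Sult1b1, of phenols and thyroid hormones, differed by 0.92 (SE 0.48, adjusted p = 0.586). Sult2b1, a sterol sulfotransferase, was 5.20 to 6.34 in Flattop against 4.64 to 4.98 in Lgr5-high arrays (difference 0.66, SE 0.22, adjusted p = 0.31). Sult1a1, a phenol sulfotransferase, differed by 0.17 (SE 0.21) and Sult6b2 by 0.44 (SE 0.26). Of the 21 genes 17 lay under 4.70 in mean, among them 8 of the 9 Sult2 genes.

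By class, the median difference was -0.03 for P450, 0.375 for UGT, 0.37 for GST and -0.04 for SULT genes, beside -0.06 over all genes. The P450 median turned to 0.048, and that of SULT to 0.03, after a second quantile normalisation, and either sign occurred when single arrays were left out, so neither class has a settled direction. UGT and GST medians stayed positive under all 18 alternatives. These medians carry no test.

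The 6 called genes varied among the Flattop arrays. Their mean intensity was 7.20, 7.39, 6.49 and 7.84 in Flattop replicates 1 to 4 and 4.92 to 5.502 in Lgr5-high arrays. Enterocyte marker means were 9.26, 9.49, 8.92 and 10.225 in the same Flattop arrays, lowest in replicate 3 and highest in replicate 4 as for the mean of the enzyme genes. Singly, Cyp3a13 (5.35) and Cyp2j6 (6.82) were lowest in Flattop replicate 1, whereas Gsta4 (9.01) and Gstm3 (8.002) were highest there. Lymphocyte marker means were 8.89, 9.38, 11.17 and 10.60, highest in the array where the mean of the enzyme genes was lowest. Among Flattop arrays, replicate 3 was also lowest for Paneth (11.88), enteroendocrine (9.21), stem cell (7.80) and mast cell marker means (5.68). Goblet marker means were lowest in replicate 4 (12.12). Goblet (12.12 to 12.61 against 9.65 to 11.065) and Paneth marker means (11.88 to 12.67 against 8.62 to 9.86) were also higher in Flattop, with 5 of 7 genes called in each list. Liver markers were not, with 0 of 4 called and list means of 5.435 to 5.55 against 5.33 to 6.37. Enteroendocrine means were 9.21 to 9.69 against 7.31 to 7.96 (5 of 7 genes called), and mast cell means 5.68 to 6.505 against 4.005 to 4.46 (3 of 5 called). Markers of gut region gave 1 call in each list, all higher in Flattop. In the distal list of 3 genes this was the ileal gene Fabp6 (7.10), with Osr2 (0.63) and Slc10a2 (0.20) not called. In the proximal list of 5 it was Rbp2 (4.15), with the other 4 between -0.41 and 0.53, and in the colon list of 4 it was Car4 (2.36), with the other 3 negative and not called. What part these marker differences had in the enzyme differences was not tested.

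**Figure D4:**
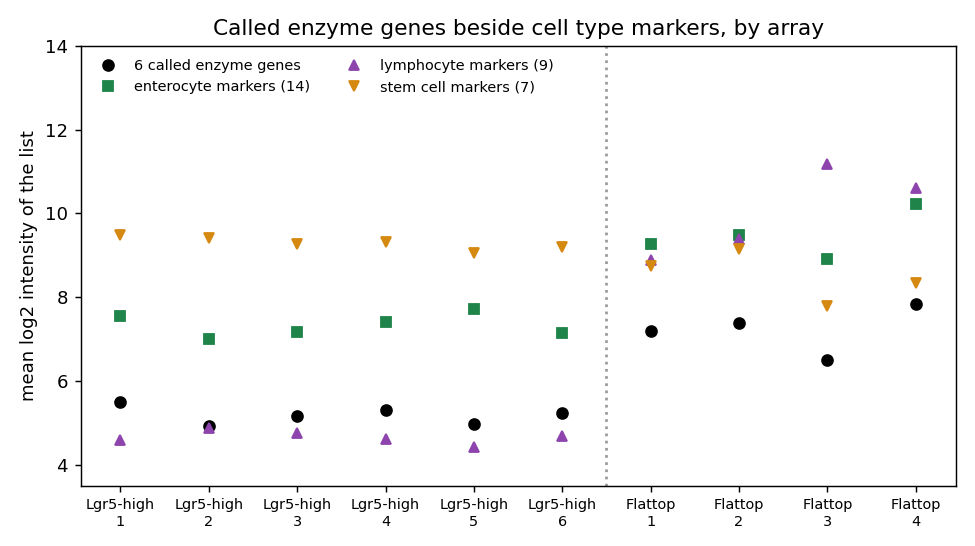
Mean log2 intensity per array (x axis, 6 Lgr5-high then 4 Flattop arrays) of the 6 called enzyme genes (black circles) and of the enterocyte (green squares), lymphocyte (purple triangles) and stem cell markers (orange inverted triangles). Means of the enzyme genes and of the enterocyte markers are both higher in all Flattop arrays, lowest there in replicate 3 and highest in replicate 4. Among Flattop arrays the stem cell marker mean is also lowest in replicate 3.

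Companion genes of the same pathways were taken from lists of textbook members. Of 40 other oxidation, reduction and hydrolysis enzymes 4 rose and none fell (median 0.29). They were the carboxylesterases Ces2e (2.14, adjusted p = 0.0155) and Ces2a (1.44, adjusted p = 0.0483), the flavin monooxygenase Fmo5 (2.11, adjusted p = 0.0228) and Aldh1a1, which oxidises retinal (2.24, adjusted p = 0.032), all from limma. The groups overlapped in Aldh1a1 and were apart in the other 3. At an unadjusted p under 0.05 in limma, 14 of the 40 (35.0%) were higher and none lower, where 9.78% of all genes differed. Among 13 genes of electron donors and cofactor supply 1 rose (7.69%, where 0.915% of all genes were called, median 0.59). This was Papss2, an enzyme that makes the sulfate donor of all sulfotransferases. It read 7.04, 6.76, 5.77 and 9.01 in Flattop replicates 1 to 4, and 3.60 to 4.10 in Lgr5-high arrays, a difference of 3.36 (SE 0.48, limma adjusted p = 0.00698). All Flattop arrays lay above all Lgr5-high arrays. Papss1, which makes the same donor and was named after its values were seen, differed by 0.82 and was not called (limma adjusted p = 0.589). Of the 13 cofactor genes 4 (30.8%) were higher and none lower at an unadjusted p under 0.05, where 9.78% of all genes differed.

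Of 14 transporters 1 rose (7.14%, where 0.915% of all genes were called, median 0.12), the peptide carrier Slc15a1 (2.18, limma adjusted p = 0.0492). The export pumps Abcb1a (1.18, adjusted p = 0.255) and Abcc3 (0.70, adjusted p = 0.383) were not called. At an unadjusted p under 0.05 in limma, 4 of the 14 (28.6%) were higher and none lower, where 9.78% of all genes differed. None of 11 other conjugation enzymes was called by limma (median -0.03). Without adjustment, at a p under 0.05, 1 (9.09%) was lower, near the 9.78% of all genes that differed.

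None of 14 measured xenobiotic sensors and regulators was called by limma (median 0.018), where 0.915% of all genes were. Without adjustment, at a p under 0.05, 3 were higher and 1 was lower (28.6% of the list, against 9.78% of all genes). Nr1i3, the constitutive androstane receptor, read 5.88, 6.61, 7.38 and 7.13 in Flattop replicates 1 to 4, and ran from 4.76 through 5.51 to 5.78 in Lgr5-high arrays. All Flattop arrays were above all Lgr5-high arrays, but the difference of 1.33 (SE 0.30) missed the threshold (adjusted p = 0.0823). The aryl hydrocarbon receptor Ahr differed by 0.78 (adjusted p = 0.292) and Hnf4g, a nuclear receptor of the gut epithelium, by 1.53 (adjusted p = 0.272). Nr1i2 and Hnf4a were picked after their values were seen, since they bear on the P450 genes above. The pregnane X receptor Nr1i2 spread widely in both groups, 5.43 to 8.53 and 5.55 to 8.89, and differed by -0.23 (SE 0.71), and Hnf4a by -0.37 (adjusted p = 0.481).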

How the data were processed

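RNA of sorted cells was amplified and hybridised to 10 arrays, per the labels' protocols. The deposited values are log2 intensities, which the authors made by robust multi-array averaging (RMA) in oligo 1.38.0, per the submitters' processing notes. Filters and the genome build behind the annotation are not given. Values ran from 2.01 to 14.1. Platform annotation gave 23521 probe sets with 1 symbol, 1814 with several and 16010 not listed. Where a gene had several probe sets, that with the highest mean stood for it, leaving 22180 genes, with symbols checked against RefSeq of GRCm38.p6.

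Groups were compared with limma 3.58.1 in R 4.3.3, with two-sided p-values adjusted by the Benjamini-Hochberg method across the whole table. The code was tested on simulated data. The number of arrays limits the precision. Alternatives were other scaling, removal of dim genes, blocks, each title range alone, probe set means and each array left out. A fit over all probe sets was added after seeing the data. Members, lists and tests were chosen with earlier results of these data known. Named members were those called and those with discordant probe sets. In each family the 4 with the smallest p and the 3 with the highest mean were named too. Other genes named were called in a list or among its 3 smallest p, and exceptions are stated. Not every other gene within that rule is named. Same-numbered arrays of the 2 groups did not deviate together (correlations of -0.206 to 0.297), so replicate numbers were not treated as pairs. Figures were drawn with matplotlib 3.10.9.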

Additional observations from a re-analysis of the deposited data

Results flagged for a closer look

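In 8 of 78 groups of named members (39 genes in 2 groups), 1 array stood far from the rest of its group. The cutoff has a nominal rate of about 1 in 20 groups, if values are normally distributed. Its rate over all genes was not measured, so no excess can be read from the count. Cyp3a25 was at 8.61 in Flattop replicate 3, and at 5.62 to 5.98 on the remaining Flattop arrays. Sult2b1 was at 6.34 in the same array (others 5.20 to 5.25), and Sult1a1 at 5.12 there (others 5.501 to 5.54). Cyp4f14 was at 5.96 in Lgr5-high replicate 5 (others 3.815 to 4.60) and Cyp2j6 at 6.73 in Lgr5-high replicate 1 (others 5.37 to 5.88). Smaller gaps were found for Cyp2c55 at 4.81 in Flattop replicate 2 (others 5.26 to 5.36), Cyp1b1 at 3.52 in Flattop replicate 1 (others 3.845 to 3.90) and Cyp1a2 at 4.08 in Lgr5-high replicate 6 (others 4.295 to 4.415).

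A signal also stood outside the single-gene measurement, in a probe set that matches 4 genes of the Gsta group. It was higher in Flattop by 5.02 on the log2 scale (SE 0.395, limma adjusted p = 0.000357 over all probe sets), and all 4 Flattop arrays lay above all 6 Lgr5-high arrays.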

How the results depend on the processing

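Gsta4, Cyp3a13 and Cyp4f40 were called in 16, 15 and 16 of 18 alternatives and whichever array was left out (adjusted p 5.23e-05 to 0.0148), whereas Gstm3, Cyp2j6 and Cyp2d26 were called in 6, 6 and 4. All 6 differences stayed positive throughout. With an array left out or within a title range they could not do otherwise, since the groups were apart in these genes. The count of called members was 4 after a second quantile normalisation, 5 after centring, 5 with the title range as a block, 2 within titles 1 to 8, 0 within titles 38 to 46 (limma; 13.4% of members at an unadjusted p under 0.05, against 8.48% of all genes) and 3 to 5 with an array left out. It was 3 without Flattop replicates 2 or 4 or Lgr5-high replicates 4, 5 or 6. Genes called over all genes numbered 203, 77 and 85 within the 2 title ranges, and 123 to 215 with an array left out, the lowest without Flattop replicate 2 and 132 without Lgr5-high replicate 4. With the replicate block 57 genes and 0 members were called (limma; 20 members, or 15.7%, at an unadjusted p under 0.05, against 8.0% of all genes). Only Flattop replicate 1 correlated best with its own number, so this block shares a number and not a known source. Members with groups apart numbered 44 and 34 within the title ranges (34.6% and 26.8%, near the 30.9% and 24.5% of all genes), and 12 to 19 with an array left out, the highest without Flattop replicate 3 (15.0%, against 6.56% of all genes). Leaving out dim genes kept 55 members and moved the P450 median to 0.244 and that of SULT to 0.791. Few SULT genes stood behind that value, since 17 of the 21 lay under 4.70 in mean. Dim was judged by the mean over both groups, so a gene high in Flattop was more readily kept. Within titles 1 to 8 the P450 median was -0.151; the cause was not tested. Of 33 named members not called, 6 changed sign under some alternative: Cyp1a1, Cyp1a2, Cyp1b1, Cyp2c55, Mgst1 and Sult1a1.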
